A study of Mus musculus with 52 samples.

Results

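The genes described here are 10 known targets of the transcription factor Nrf2 that serve glutathione and redox defence: Nqo1, Hmox1, Srxn1, Txnrd1, Slc7a11, Gclc, Gclm, Gsta2, Gsta4 and Ephx1. They were chosen by name from what is known of Nrf2 and are 10 of the 18194 genes measured. Each gene was read by the probe set that is annotated to that gene alone and has the highest mean over all arrays. Liver RNA of C57Bl6/N mice, all labelled male, had been hybridized to 52 Affymetrix mouse genome arrays, 1 array per sample. The operated mice had undergone partial hepatectomy, the surgical removal of most of the liver, after which the remnant regrows. Their livers were taken at 1 hour (3 arrays), 6 hours (4 arrays), 12 hours (4 arrays), 24 hours (11 arrays), 48 hours (4 arrays), 3 days (4 arrays), 4 days (4 arrays), 1 week (4 arrays), 2 weeks (2 arrays), 4 weeks (4 arrays) and 3 months (3 arrays), and 5 arrays came from untreated controls. The age given for the mice is 8 to 12 weeks, and those sampled 3 months after the operation were older than that when sampled. All were fed a standard diet, and no transgene or deletion is named for them. No sham-operated mice were analysed here, so the operation, the loss of tissue, the time of day and, at the late times, age cannot be told apart in a comparison with the controls.

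Nrf2, the product of Nfe2l2, is a transcription factor that is held in the cytoplasm and sent for degradation by Keap1 while a cell is at rest. Oxidants and electrophiles modify cysteines of Keap1, and Nrf2 then enters the nucleus, pairs with a small Maf protein and binds antioxidant response elements near its targets. In the liver these targets make glutathione, regenerate thioredoxin, break down heme and conjugate or hydrolyse reactive compounds. Hepatocytes carry most of the conjugating enzymes at high levels at rest, whereas Hmox1 is known above all from macrophages that take up old red cells.

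The element that Nrf2 and small Maf proteins bind has the core TGACNNNGC, which was searched on both strands from 250 bases before to 50 bases after the annotated starts in the RefSeq promoter sequences of mouse build GRCm38.p6. Windows were at hand for 7 of the 10 genes, 9 windows in all, and were not at hand for Hmox1, Gclc and Gsta4. The core was found in 3 of these 9 windows, those of Gclm, Txnrd1 and Srxn1, against 12.39% of all 32851 windows. They are shown because these genes were among the first members to change after the operation, Srxn1 and Txnrd1 upward and Gclm downward. Each line is the plus strand, 5′ to 3′, with the core in capitals, and in each case the letters TGAC lead on the minus strand. The stretches are chr3:122245403-122245451 for Gclm, chr10:82859094-82859142 for Txnrd1 and chr2:152105542-152105570 for Srxn1.
Gclm: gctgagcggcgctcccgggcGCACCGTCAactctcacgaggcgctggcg
Txnrd1: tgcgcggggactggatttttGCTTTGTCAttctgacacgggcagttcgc
Srxn1: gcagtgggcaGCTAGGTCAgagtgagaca

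Counted from the annotated start as base 1, with negative numbers before it, the core lies at -134 to -126 in Gclm, at -92 to -84 in 1 of the 3 windows of Txnrd1, and at 29 to 37, inside the transcribed part, in Srxn1. The Srxn1 window alone among the 9 also held the AP-1 motif TGANTCA, the site of Fos and Jun proteins, which was found in 7.81% of all windows. It had 2 matches, at -102 to -96 (chr2:152105402-152105448) and at -45 to -39 (chr2:152105459-152105505), shown here in capitals, and neither overlaps the core above. With the letters that follow it, the match at -45 reads TGAGTCAGC. It differs from the core TGACNNNGC only in a G where the core has C.
Srxn1 at -102: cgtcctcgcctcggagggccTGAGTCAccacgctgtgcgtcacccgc
Srxn1 at -45: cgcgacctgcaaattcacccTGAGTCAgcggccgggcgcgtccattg

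A match of letters is a description and does not show binding. The response elements known for several of these genes, such as those of Nqo1 and Hmox1, lie at other distances, so the absence of the letters from a window of this length says nothing of a gene's control.

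Hepatocyte markers were bright throughout, with 9 of 10 listed genes measured and a summed log2 level between 16.14 and 16.39 on every array. The arrays of untreated liver stood apart in a technical measure. The hybridization controls, bacterial transcripts added to each sample before hybridization, had means between 9.73 and 10.38 in the operated groups and of 10.85 ± 0.29 in the controls (SD, n = 5). The Gapdh 3' minus 5' difference, a measure of RNA integrity, averaged 0.65 to 1.10 in the operated groups and 1.61 ± 0.57 (SD, n = 5) in the controls. Of the single arrays, 1-week replicate 4 correlated at -0.28 with the rest of its group over the 2000 most variable genes, and 4-week replicate 1 at -0.50 with its own group and at 0.94 with the 12-hour group. On 24-hour replicates 9, 10 and 11 the female-specific RNA Xist was above 6, against the label male. Unless another fit or probe set is named beside it, a p-value below comes from 1 limma fit over the 52 arrays. Its errors pool the spread of a gene over the 12 groups, so widely scattered groups enlarge the error of tight ones. The p-values are adjusted over the genes fitted, 18194 in that fit, and measure the spread between these samples, since the labels do not state that they are separate mice.

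Across the series, 8 of the 10 genes changed at some time (limma F test over the 11 times, adjusted p under 0.05), as did 64.6% of all genes. Srxn1 was higher at every time from 6 hours to 1 week, Txnrd1 at the same times except 12 hours, and Nqo1 from 48 hours to 1 week. Gclm was lower at 6 and 12 hours and Gclc at 12 hours, and Gsta2 and Gsta4 were lowest at 24 hours. Slc7a11 and Ephx1 did not pass the test, with adjusted p = 0.413 and 0.0684.

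Against the controls, 0 of the 10 genes were called at 1 hour, when 5.04% of all genes were. At 6 hours 3 were higher and 1 was lower (22% of all genes called), at 12 hours 1 was higher and 2 were lower (29.9%), and at 24 hours 2 were higher and 2 were lower (31.7%). At 48 hours 3 were higher and 1 was lower (30.8%). From then on no member was called lower: 3 were higher at 3 days (39.4%), 4 at 4 days (32.8%) and 4 at 1 week (36.7%). At 2 weeks 0 were called (3.41%), at 4 weeks 0 (14.7%) and at 3 months 1, Hmox1 (30.1%). The counts are thus near the share of all genes called at most times, and they describe the members rather than set them apart. The members' median log2 fold change was -0.53 at 12 hours, 0.44 at 4 days and 0.36 at 1 week, where the median of all genes was -0.04, -0.00 and 0.02. All comparisons with the controls share the same 5 arrays.

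**Figure D1:**
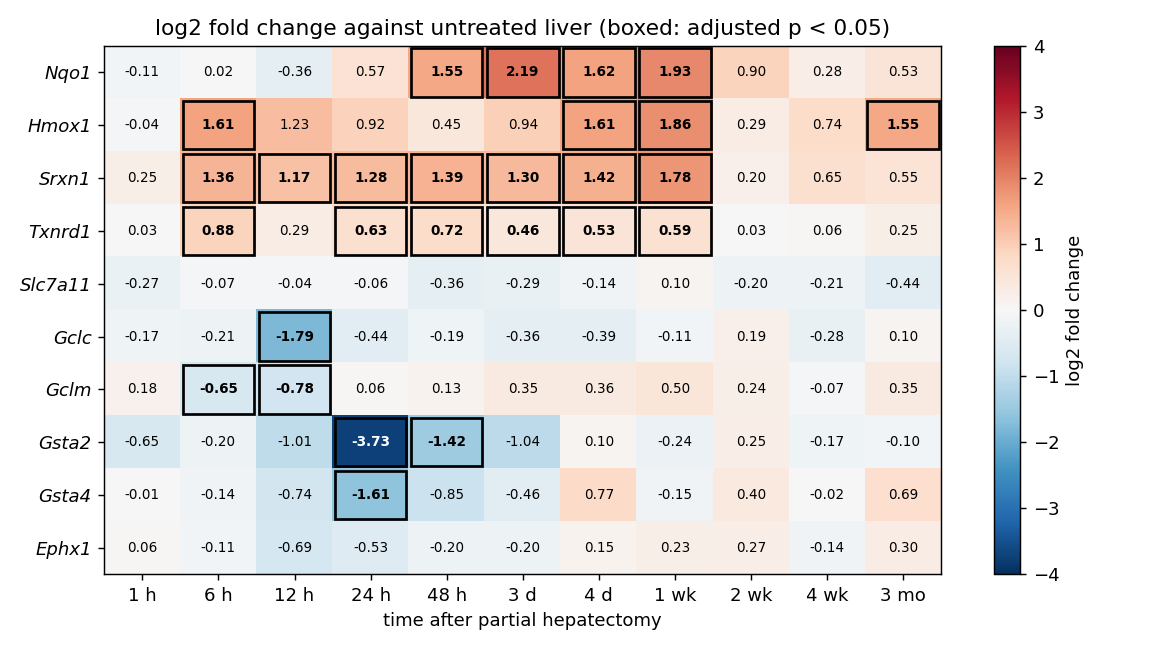
Log2 fold change of each of the 10 genes (rows) at each time after partial hepatectomy against untreated liver (columns), from red for higher to blue for lower. Boxes mark adjusted p under 0.05 in the limma fit. Srxn1 is boxed at every time between 6 hours and 1 week, Nqo1 between 48 hours and 1 week, and Gsta2 shows its lowest value, -3.73, at 24 hours.

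Nqo1, a reductase that turns quinones into hydroquinones and is the usual readout of Nrf2 activity, rose late and by the largest amount among the members that rose. It read 7.08, 6.08, 7.09 and 7.65 at 3 days, against 4.70, 4.84, 4.57, 4.59 and 5.26 in the controls. The log2 fold change was 2.19 ± 0.30 (SE), which is 4.55-fold (limma adjusted p = 4.2e-07). Every array at 3 days lies above every control.

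The rise of Nqo1 was already in place at 48 hours, with 5.70, 6.42, 6.91 and 6.31, against 4.57 to 5.26 in the controls (log2 fold change 1.55 ± 0.30, limma adjusted p = 0.000149). At 4 days the arrays read 7.01, 7.07, 5.82 and 5.77 (1.62 ± 0.30, limma adjusted p = 8.09e-05), in 2 close pairs that both lie above the controls. At 1 week they read 6.36, 6.75, 7.24 and 6.51 (1.93 ± 0.30, limma adjusted p = 4.49e-06). The 4 groups from 48 hours to 1 week thus overlap each other and none overlaps the controls.

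Outside that interval Nqo1 was not called. Its means were 4.68 ± 0.13 at 1 hour (SD, n = 3), 4.81 ± 0.15 at 6 hours (SD, n = 4) and 4.43 ± 0.27 at 12 hours (SD, n = 4), all within the spread of the controls or below it. At 24 hours the lowest, median and highest of the 11 arrays were 4.25, 5.52 and 5.98 (0.57 ± 0.24, limma adjusted p = 0.0695). Of the 3 arrays with Xist, 2 are among the lowest of the group, and without all 3 the change at 24 hours was 0.78 and was called (limma adjusted p = 0.00951). Without the 7 doubted arrays, which are these 3, replicate 1 of the controls, the 24-hour and the 4-week group and 1-week replicate 4, it was 0.70 (0.0452). At 2 weeks the arrays read 5.64 and 5.74, both above all controls (0.90 ± 0.38, limma adjusted p = 0.197), and at 4 weeks and 3 months the means were 5.07 ± 0.39 (SD, n = 4) and 5.32 ± 0.47 (SD, n = 3). The untreated level lies not far above the array medians of 3.89 to 4.10, near background, so the folds of Nqo1 may be understated.

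Srxn1 encodes sulfiredoxin, which repairs peroxiredoxins that have been overoxidized. It rose early and kept a nearly level value for days. It read 8.36, 7.56, 7.81 and 7.71 at 6 hours, against 6.55, 6.60, 6.52, 6.54 and 6.29 in the controls. The log2 fold change was 1.36 ± 0.30, or 2.56-fold (limma adjusted p = 0.000653), and the groups are separated by almost 1 log2 unit. At 1 hour the arrays read 6.59, 7.04 and 6.61, of which 1 stands clear of the controls (0.25 ± 0.33, limma adjusted p = 0.797).

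The later groups of Srxn1 repeated the level at 6 hours. At 12 hours the arrays read 7.52, 7.73, 7.74 and 7.69 (1.17 ± 0.30, limma adjusted p = 0.00263). At 24 hours the lowest, median and highest were 7.15, 7.67 and 8.76 (1.28 ± 0.24, limma adjusted p = 7.35e-05). At 48 hours they read 7.28, 8.14, 8.25 and 7.89 (1.39 ± 0.30, limma adjusted p = 0.000566). Every one of these arrays lies above every control.

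At 3 days Srxn1 read 7.62, 7.35, 8.20 and 8.05 (1.30 ± 0.30, limma adjusted p = 0.000727) and at 4 days 7.73, 8.95, 7.55 and 7.47 (1.42 ± 0.30, limma adjusted p = 0.000403). At 1 week it read 7.59, 8.05, 7.75 and 9.72 (1.78 ± 0.30, limma adjusted p = 1.61e-05), with 1-week replicate 4 far above the other 3. The means of the 7 groups from 6 hours to 1 week ran from 7.67 to 8.28 and their arrays overlap. At 2 weeks Srxn1 was back at 6.73 and 6.69 (0.20 ± 0.38, limma adjusted p = 0.85), and it was not called at 4 weeks or 3 months, with changes of 0.65 and 0.55. Srxn1 has 3 other probe sets, of which 2 also gave called rises at 6, 12 and 24 hours and at 1 week. The remaining one, with a mean of 5.34, was called higher at 6 hours (0.42, limma adjusted p = 0.0368) and 12 hours (0.42, 0.0253) and not from 24 hours to 1 week, where it gave -0.15 to 0.13.

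Txnrd1, the cytosolic thioredoxin reductase that spends NADPH to keep thioredoxin reduced, followed a course like that of Srxn1 with smaller changes. It read 9.97, 9.76, 9.53 and 9.62 at 6 hours, against 8.69, 9.02, 8.83, 8.97 and 8.69 in the controls (0.88 ± 0.17, 1.84-fold, limma adjusted p = 0.00013). The groups do not overlap, and 6 hours was its highest mean. At 12 hours the mean was 9.13 ± 0.07 (SD, n = 4), still above every control but not called (0.29 ± 0.17, limma adjusted p = 0.214).

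Txnrd1 was higher again at 24 hours, with 9.13, 9.37 and 9.92 as the lowest, median and highest (0.63 ± 0.14, limma adjusted p = 0.000524), and at 48 hours, with 9.28, 9.66, 9.89 and 9.41 (0.72 ± 0.17, limma adjusted p = 0.00156). At 3 days, 4 days and 1 week the changes were 0.46 ± 0.17, 0.53 ± 0.17 and 0.59 ± 0.17 (limma adjusted p = 0.0309, 0.0176 and 0.00641). Each of these last 3 calls ended when a single array was left out. Without 1-week replicate 4 the change at 1 week was 0.32 (limma adjusted p = 0.123). Without 4-day replicate 2 that at 4 days was 0.41 (limma adjusted p = 0.105). At 3 days the call ended without any 1 of 3-day replicates 1, 3 and 4 or control replicates 1 and 5. The change there stayed at 0.37 to 0.48 (limma adjusted p = 0.0504 to 0.126), so that call lies near the threshold and does not hang on 1 array. From 2 weeks on the changes were 0.03, 0.06 and 0.25, none called. Its 2 other probe sets, which lie near background, were called higher at 6 and 12 hours and at none of the times from 24 hours to 1 week, with 0.70 and 0.16 at 48 hours (limma adjusted p = 0.168 and 0.542) and -0.10 and -0.073 at 4 days. With the mean of the 3 probe sets the change at 24 hours was 0.26 (limma adjusted p = 0.175).

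**Figure D2:**
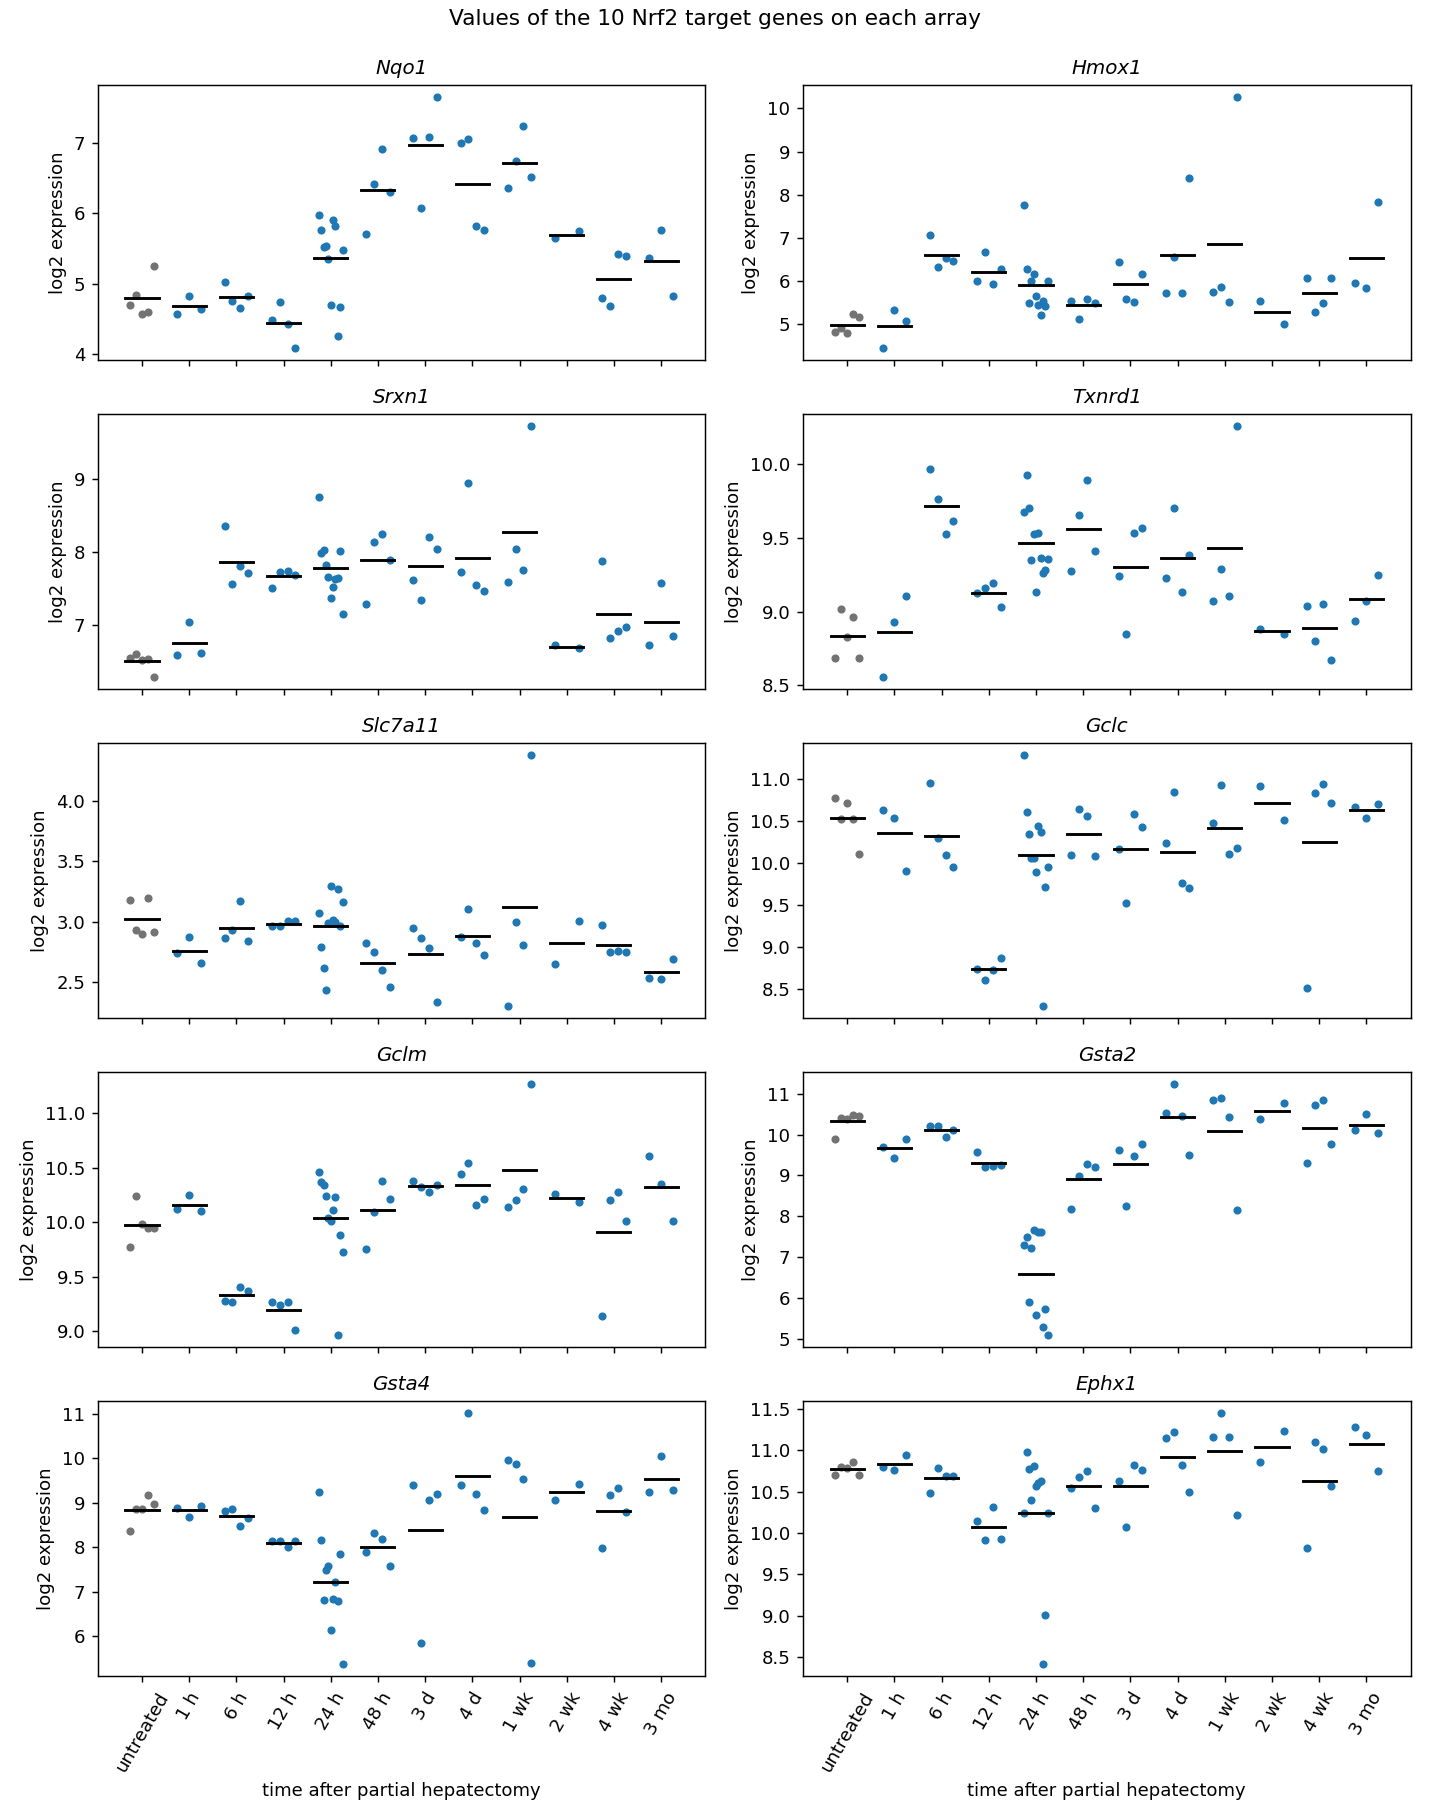
Log2 expression of the 10 genes on each of the 52 arrays, 1 panel per gene, with untreated controls in grey, the times after partial hepatectomy in blue and the group mean as a bar. Srxn1 lies above all controls on every array between 6 hours and 1 week, Gsta2 is low on all 11 arrays at 24 hours, and single arrays stand apart at 1 week and 4 weeks.

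Hmox1 encodes the inducible heme oxygenase, which splits heme into biliverdin, carbon monoxide and iron. It read 7.07, 6.32, 6.52 and 6.47 at 6 hours, against 4.83, 4.91, 4.80, 5.23 and 5.17 in the controls (1.61 ± 0.56, 3.04-fold, limma adjusted p = 0.0306). All 4 arrays lie more than 1 log2 unit above the highest control. This call is not firm in the fit over all arrays, whose error is shared by the 12 groups. The SD of Hmox1 was 0.33 at 6 hours (n = 4) and 0.20 in the controls (n = 5), but 2.28 at 1 week (n = 4). Leaving out 6-hour replicate 1, 3 or 4 or control replicate 1 or 3 gave 1.45 to 1.65 with limma adjusted p of 0.0527 to 0.0978. Without the 7 doubted arrays the change at 6 hours was 1.57 and stayed called (limma adjusted p = 0.00141). At 12 hours the arrays read 6.01, 6.66, 5.92 and 6.28, also above all controls (1.23 ± 0.56, limma adjusted p = 0.0911), and without the 7 doubted arrays the change was 1.19 and was called (0.0136).

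The later calls of Hmox1 were not firm either. At 4 days it read 5.72, 6.57, 5.72 and 8.38 (1.61 ± 0.56, limma adjusted p = 0.0235), and without replicate 4 the change was 1.01 (0.169) and without replicate 2 it was 1.62 (0.0512). At 1 week it read 5.75, 5.86, 5.53 and 10.25 (1.86 ± 0.56, limma adjusted p = 0.00766), and without replicate 4 the change was 0.72 (0.2). At 3 months it read 5.95, 5.83 and 7.83 (1.55 ± 0.61, limma adjusted p = 0.0476), and without replicate 3 the change was 0.90 (0.338). Without 3-month replicate 1 it was 1.84 (limma adjusted p = 0.0557), and leaving out any 1 of the 5 controls gave up to 1.61 with limma adjusted p of 0.053 to 0.0819. The other arrays of these groups nevertheless lie above the highest control of 5.23. Without the 7 doubted arrays the changes at 4 days and 3 months were 1.57 and 1.51 and stayed called (limma adjusted p = 0.00165 and 0.00544). That at 1 week was 0.68 in the same fit and was not called (0.21).

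Macrophages are a source of Hmox1 in the liver, and their markers moved in these samples. All 13 listed Kupffer cell genes were measured, and their summed log2 level averaged 11.12 at 1 hour, 9.78 at 6 hours, 9.90 at 12 hours, 11.57 at 1 week and 11.76 at 3 months, and 10.11 in the controls, with a range there of 9.41 to 10.56. Of the 13, 5 were higher and 0 lower at 1 hour (5.04% of all genes called), and 3 were higher and 1 lower at 6 hours (22%). At 24 hours (31.7%), 1 week (36.7%) and 3 months (30.1%) 11 were higher and 0 lower. Hmox1 was highest among the early groups at 6 hours. There the summed level of these markers was 9.59 to 9.94, within the range of the controls. At 1 hour, where the mean of that level was above the mean of the controls, Hmox1 was 4.95 ± 0.45 (SD, n = 3). At 4 days, 1 week and 3 months, where Hmox1 was called higher, the summed level averaged 11.35, 11.57 and 11.76. At 2 weeks, where the summed level was highest, Hmox1 was 5.28 ± 0.37 (SD, n = 2) and was not called. On 1-week replicate 4 the summed neutrophil and monocyte level was 11.20, against 7.49 to 7.89 on the other 3 arrays of the group. Of the 7 genes in that sum, S100a8 and S100a9 varied widely at 1 week (SD 2.82 and 2.27, n = 4). Mpo, Elane, Ccr2, Csf3r and Cxcr2 varied little there (SD 0.16 to 0.38, n = 4). Elane was lower at 1 week than in the controls (-0.78, limma adjusted p = 0.000534). In bulk RNA, more cells of a type and more RNA per cell cannot be told apart, and the part of these cells in the values of Hmox1 was not tested.

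Gclc and Gclm encode the catalytic and the modifier subunit of glutamate-cysteine ligase, which sets the pace of glutathione synthesis. Both fell within the first 12 hours. Gclc read 8.74, 8.61, 8.73 and 8.87 at 12 hours, against 10.77, 10.53, 10.72, 10.52 and 10.11 in the controls (-1.79 ± 0.36, 3.46-fold lower, limma adjusted p = 0.000154). The lowest control lies more than 1 log2 unit above the highest array at 12 hours. The other Gclc probe set gave -2.13 at that time (limma adjusted p = 1.83e-06).

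At the other times Gclc was not called. Its mean was 10.36 ± 0.39 at 1 hour (SD, n = 3) and 10.32 ± 0.44 at 6 hours (SD, n = 4), and at 24 hours the lowest, median and highest arrays read 8.31, 10.06 and 11.28. From 48 hours to 3 months the means lay between 10.14 and 10.72, and the mean of the controls was 10.53 ± 0.26 (SD, n = 5). At 4 weeks 1 array read 8.51 and the other 3 read 10.83, 10.93 and 10.72. That array is 4-week replicate 1, which resembles the 12-hour group over the most variable genes.

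Gclm read 9.27, 9.27, 9.41 and 9.37 at 6 hours, against 9.78, 10.24, 9.98, 9.95 and 9.95 in the controls (-0.65 ± 0.21, limma adjusted p = 0.0192). At 12 hours it read 9.27, 9.24, 9.27 and 9.01 (-0.78 ± 0.21, 1.72-fold lower, limma adjusted p = 0.00351). Neither group overlaps the controls. The dimmer of the 2 Gclm probe sets gave 0.15 at 6 hours (limma adjusted p = 0.762) and -0.43 at 12 hours (0.187), so the fall at 6 hours is a reading of 1 probe set, and the call there also ended without control replicate 2 (-0.58, 0.052) and with the Gapdh difference as a covariate (-0.56, 0.0788).

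From 24 hours on Gclm was back at or slightly above the controls. Its means were 10.03 ± 0.42 at 24 hours (SD, n = 11), 10.33 ± 0.04 at 3 days (SD, n = 4) and 10.34 ± 0.18 at 4 days (SD, n = 4), against 9.98 ± 0.17 in the controls (SD, n = 5). Without the 7 doubted arrays the changes at 3 days and 4 days were 0.30 and 0.31 and were called (limma adjusted p = 0.0356 and 0.0385). At 1 week it read 10.14, 10.20, 10.30 and 11.26 (0.50 ± 0.21, limma adjusted p = 0.0565), and without replicate 4 the change was 0.24 (0.402). The dimmer Gclm probe set was called higher at 1 hour (0.87, limma adjusted p = 0.0387), 3 days (0.62, 0.0416) and 1 week (0.86, 0.00524), and the set used here was not.

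Slc7a11, the cystine transporter that feeds glutathione synthesis in many cultured cells, was not separated from background. It lay between 2.30 and 3.29 on 51 of the 52 arrays, below the array medians, and read 4.38 on 1-week replicate 4. None of its 11 comparisons with the controls was called with all arrays, and without the 7 doubted arrays it was called lower at 3 months (-0.40, limma adjusted p = 0.0488), at a background level.

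Gsta2 and Gsta4 are alpha-class glutathione S-transferases, which join glutathione to electrophiles such as lipid aldehydes. Gsta2 gave the largest change of all members. At 24 hours its arrays read 7.31, 7.49, 5.91, 7.24, 7.67, 5.58, 7.62, 7.60, 5.29, 5.74 and 5.10, against 9.89, 10.40, 10.39, 10.47 and 10.46 in the controls. The log2 fold change was -3.73 ± 0.38, or 13.2-fold lower (limma adjusted p = 8.01e-10). All 11 arrays lie more than 2 log2 units below the lowest control, and they scatter over more than 2 log2 units among themselves. The 3 arrays with Xist are among the lowest 5, and without them the change was -3.27 (limma adjusted p = 6.87e-09).

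Gsta2 was also lower at 48 hours. At 6 hours the mean was 10.12 ± 0.13 (SD, n = 4) and at 12 hours 9.31 ± 0.17 (SD, n = 4). Every array at 12 hours lies below every control, but the change was not called (-1.01 ± 0.48, limma adjusted p = 0.108). Its standard error includes the spread of other groups, with an SD of 1.05 at 24 hours (n = 11) and 1.30 at 1 week (n = 4). At 48 hours the arrays read 8.17, 8.98, 9.28 and 9.20 (-1.42 ± 0.48, limma adjusted p = 0.0212). Without 48-hour replicate 1 the change was -1.17 (0.0807), and with the Gapdh difference as a covariate it was -1.29 (0.0544). At 3 days they read 9.63, 8.25, 9.48 and 9.77, again all below the controls (-1.04 ± 0.48, limma adjusted p = 0.0784). Without the 7 doubted arrays Gsta2 was called lower at 12 hours (-1.12, limma adjusted p = 0.0154) and 3 days (-1.15, 0.0107) as well. From 4 days to 3 months the means lay between 10.08 and 10.57, and that of the controls was 10.32 ± 0.25 (SD, n = 5). Alpha-class genes are similar in sequence: a probe set annotated to Gsta1, Gsta2 and Gm3776 together also fell at 24 hours (-2.80 ± 0.53, limma adjusted p = 8e-05), and which of these genes a probe reads cannot be told from the values.

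Gsta4 was lower at 24 hours with a wide scatter. The lowest, median and highest of its 11 arrays were 5.39, 7.23 and 9.23, against 8.36, 8.86, 8.85, 9.17 and 8.98 in the controls (-1.61 ± 0.51, 3.06-fold lower, limma adjusted p = 0.0122). One array at 24 hours lies above all controls and the other 10 below. With the Gapdh difference as a covariate the change was -1.25 and was not called (limma adjusted p = 0.107). At 12 hours and 48 hours the means were 8.10 ± 0.07 and 8.00 ± 0.33 (SD, n = 4 each), below every control and not called. Single arrays fell far below their groups at 3 days (5.86, where the others read 9.07 to 9.41) and at 1 week (5.40, where the others read 9.54 to 9.96).

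Ephx1, the microsomal epoxide hydrolase, is one of the brightest members and was called at no time in the fit of group means over all 52 arrays. At 12 hours it read 10.14, 9.92, 10.32 and 9.93, against 10.69 to 10.86 in the controls, and the groups do not overlap (-0.69 ± 0.31, limma adjusted p = 0.0913). At 24 hours replicates 9 and 10, 2 of the 7 doubted arrays, read 8.42 and 9.02 for Ephx1. Without those 7 arrays the change at 12 hours was -0.71 and was called (limma adjusted p = 0.000437), as was that at 1 week (0.47, 0.0368). With the hybridization controls as a covariate over all 52 arrays it was called lower at 12 hours (-0.98, limma adjusted p = 0.0476).

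Comparisons of later with earlier times do not rest on the controls. From 6 to 24 hours, where 22.2% of all genes were called, Gclm rose by 0.70 ± 0.18 (limma adjusted p = 0.00334), Gsta2 fell by 3.53 (SE 0.42, limma adjusted p = 1.53e-08) and Gsta4 fell by 1.48 (SE 0.55, limma adjusted p = 0.0457). From 24 to 48 hours, where 5.48% of all genes were called, Nqo1 rose by 0.98 ± 0.26 (limma adjusted p = 0.0183) and Gsta2 by 2.31 ± 0.42 (0.000185). Only 1 of the 10 members was called at this step without the 3 arrays with Xist, with the replicate block or with the 2 groups alone. From 48 hours to 1 week 0 of the 10 were called and 3.07% of all genes were. From 1 week to 3 months, where 0.808% of all genes were called, Nqo1 fell by 1.40 (SE 0.35, limma adjusted p = 0.0349), with 5.37, 5.77 and 4.83 at 3 months, against 6.36, 6.75, 7.24 and 6.51 at 1 week. Srxn1 differed by -1.23 ± 0.35 between these groups, which do not overlap either (limma adjusted p = 0.0705). The Nqo1 call between 1 week and 3 months ended without 3-month replicate 1 or 3 or 1-week replicate 2.

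The courses of the members were compared in pairs over the 12 group means. Gsta2 correlated at 0.89 with Gsta4, Gsta4 at 0.83 with Ephx1, and Gclc at 0.80 with Ephx1. Srxn1 correlated at 0.87 with Txnrd1 and at 0.73 with Hmox1, and Nqo1 at 0.71 with Gclm and at 0.55 with Srxn1. Gclm correlated at 0.66 with Ephx1 and at -0.03 with Srxn1, and Slc7a11 at no more than 0.26 with any member. The lowest value was -0.39, between Txnrd1 and Gsta4. Among all genes called by the F test, the courses nearest to Nqo1 were those of Tfdp2 (0.95), Tacc3 (0.95), which serves the mitotic spindle, and Gpx7 (0.94), and nearest to Srxn1 were Pdlim1 (0.97), Plpp1 (0.95) and Ppargc1a (0.95), a coactivator of mitochondrial genes. Nearest to Txnrd1 were Clic4, Cnnm2 and Osbpl11 (0.91 to 0.94), and nearest to Hmox1 were Rab31, Cdh5, the cadherin of endothelium, and Lix1l (0.90 to 0.92). Gclc lay nearest to Il18, Aldh4a1 and Ugt2b34 (0.92 to 0.93), Gclm to Casp9, Tmc6 and Naxd (0.95 to 0.97), and Gsta2 to Adhfe1, Wdfy1 and Aldh1l1 (0.90 to 0.94). Gsta4 lay nearest to Slc22a12, Bphl and Gsta2 (0.89 to 0.90), and Ephx1 to Cryl1, Mccc2 and Papss2 (0.95 to 0.97). Slc7a11, at a background level and not called by the F test (adjusted p = 0.413), lay nearest to Vwc2, Plekhm3 and Ppp2r1a (0.84 to 0.88). These are descriptions over 12 points that share arrays and normalization.

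On 1-week replicate 4 the members parted in 2 directions. It lay above the other 3 arrays of its group in 5 genes: Hmox1 at 10.25 (others 5.53 to 5.86), Srxn1 at 9.72 (7.59 to 8.05), Txnrd1 at 10.26 (9.07 to 9.29), Gclm at 11.26 (10.14 to 10.30) and Slc7a11. It lay below them in 3, Gsta2 at 8.15 (others 10.42 to 10.90), Gsta4 at 5.40 (9.54 to 9.96) and Ephx1 at 10.22. Nqo1, at 6.51, lay within the range of the other 3. On 4-week replicate 1, Gclc, Gclm, Gsta2, Gsta4 and Ephx1 lay below the rest of the group and close to the 12-hour means: 8.51 for Gclc (12-hour mean 8.74), 9.14 for Gclm (9.20), 9.29 for Gsta2 (9.31), 7.99 for Gsta4 (8.10) and 9.82 for Ephx1 (10.08).

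**Figure D3:**
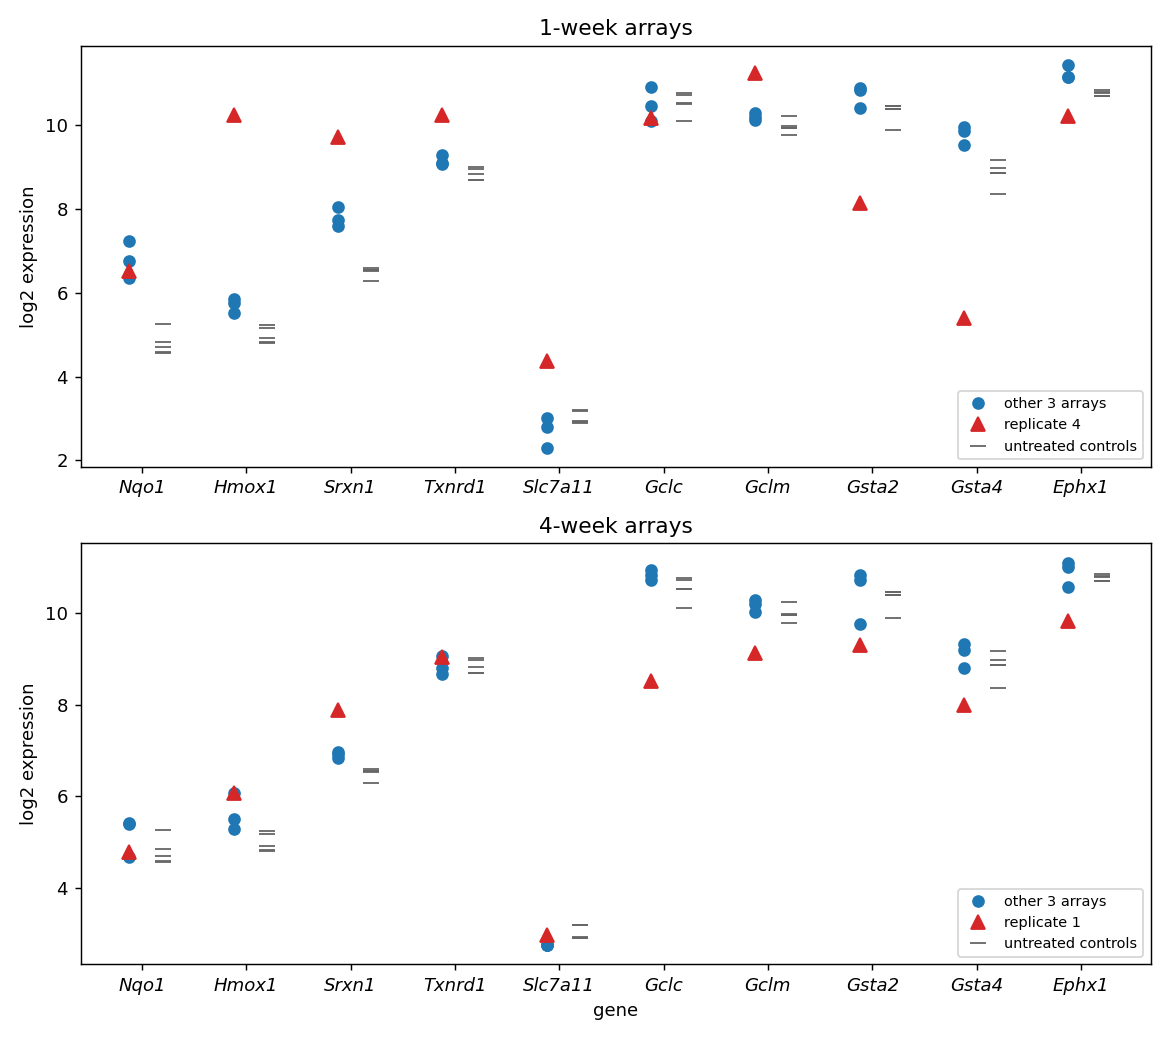
Log2 expression of the 10 genes at 1 week (upper panel) and 4 weeks (lower panel), with the array that stands apart as a red triangle, the other 3 arrays of its group as blue points and the 5 untreated controls as grey dashes. At 1 week replicate 4 is above its group in Hmox1, Srxn1, Txnrd1, Gclm and Slc7a11 and below it in Gsta2, Gsta4 and Ephx1.

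Of Nrf2 and its regulators, 11 of 11 listed genes were measured. Nfe2l2, which encodes Nrf2 itself, was higher at 3 days (0.73 ± 0.21, limma adjusted p = 0.0062), 4 days (0.83 ± 0.21, 0.00267) and 1 week (0.74 ± 0.21, 0.00559), and its changes between -0.17 and 0.42 at the other times were not called. Keap1, the protein that holds Nrf2 back, was lower at 6 hours (-0.64 ± 0.14, limma adjusted p = 0.000585) and at no other time. Maff, a small Maf partner, was highest at 1 hour (1.84 ± 0.32, limma adjusted p = 0.000508) and also higher at 6 hours (1.45 ± 0.29, 0.000155), and Mafg was lower at 6 hours (-0.93 ± 0.29, 0.0137) and 12 hours (-0.93 ± 0.29, 0.0112). Mafk was lower at 3 days (-0.39 ± 0.12, limma adjusted p = 0.00671). For the genes of this list and of the other lists, only the fit of group means was read. Whether their calls hold in the alternative fits was not tested. With the hybridization controls as a covariate, calls over all genes fell to 188 at 3 days (7168 without it). They fell to 123 at 4 days (5974) and 141 at 1 week (6683). The falls were smaller at 48 hours, to 2150 (5609), and at 6 hours, to 3284 (3999).

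Bach1, a repressor that competes with Nrf2 at the Hmox1 gene, was higher at 1 week (0.83 ± 0.27, limma adjusted p = 0.013) and 3 months (1.10 ± 0.29, 0.00407). Trim24, a ubiquitin ligase that reads chromatin, was higher at each of the 10 times from 6 hours on and highest at 12 hours (2.46 ± 0.28, limma adjusted p = 9.07e-09). At 6 hours, when Srxn1, Txnrd1 and Hmox1 were higher, 3 of the 11 listed genes were higher and 3 lower (22% of all genes called). Trim24 was among those higher, and Nfe2l2, also 1 of the 11, was not called there. At 1 week 6 were higher and 1 lower (36.7%). These are RNA levels, and Nrf2 is known to be controlled mainly through its protein, which was not measured.

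Many genes around the members in glutathione metabolism were higher from 24 hours to 1 week. Of 18 measured genes of glutathione synthesis, recycling and export (19 listed), 9 were higher and 2 lower at 24 hours (31.7% of all genes called), 10 and 1 at 3 days (39.4%) and 10 and 1 at 1 week (36.7%), and their median log2 fold change was 0.60 at 3 days, where that of all genes was -0.02. Gss, glutathione synthetase, which acts after the ligase of Gclc and Gclm, was higher at each time from 12 hours to 1 week and peaked at 48 hours (1.47 ± 0.18, limma adjusted p = 1.1e-07). Ggct, a cyclotransferase of the glutathione cycle, also peaked at 48 hours (1.72 ± 0.21, limma adjusted p = 1.36e-07). Cth, which makes cysteine from cystathionine, was lower at 12 hours (-1.72 ± 0.28, limma adjusted p = 5.03e-06), the time at which Gclc was lowest, and higher at 3 days (0.86 ± 0.28, 0.0124). Gnmt, which consumes S-adenosylmethionine, was lower at 24 hours (-0.67 ± 0.13, limma adjusted p = 7.32e-05) and higher at 3 days (0.55 ± 0.16, 0.00498).

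Of 18 other glutathione S-transferase genes measured (20 listed), 5 were lower and 0 higher at 12 hours, which is near the 29.9% of all genes called there, and 8 lower and 2 higher at 24 hours (31.7%), the time of the lowest Gsta2 and Gsta4. Gsta3 fell at 24 hours (-1.23 ± 0.37, limma adjusted p = 0.00993), as did Gsto1 (-0.95 ± 0.25, 0.00266) and Gstp1 (-0.60 ± 0.12, 0.000158). Gstm5 rose instead (0.62 ± 0.15 at 24 hours, limma adjusted p = 0.00169) and was highest at 4 days (1.18 ± 0.19, 1.09e-05). The median log2 fold change of the 18 was -0.45 at 24 hours, where that of all genes was -0.01.

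Of 13 measured genes of thioredoxin, peroxiredoxin and superoxide defence (16 listed), 3 were higher and 5 lower at 24 hours (31.7% of all genes called) and 4 higher and 5 lower at 48 hours (30.8%). Txnip, which binds and inhibits thioredoxin, was higher at 1 hour (1.57 ± 0.34, limma adjusted p = 0.0036) and lower at 48 hours (-0.98 ± 0.31, 0.0137). Txnrd3, a related reductase, was lower at 6 hours (-1.53 ± 0.27, limma adjusted p = 2.48e-05), when Txnrd1 was higher. Prdx4, the peroxiredoxin of the endoplasmic reticulum, was higher from 24 hours to 4 days (1.18 ± 0.19 at 4 days, limma adjusted p = 1.24e-05), and Sesn1, a sestrin, was higher at 1 week (1.13 ± 0.19, 9.89e-06).

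Of 9 measured genes that supply NADPH to these reductases (10 listed), 3 were lower and 0 higher at 6 hours (22% of all genes called) and at 12 hours (29.9%), and 4 were lower and 1 higher at 24 hours (31.7%). At 12 hours the count is near the share of all genes. Mthfd1, of the folate cycle, fell at 12 hours (-1.96 ± 0.29, limma adjusted p = 1.25e-06). Me1, malic enzyme, which is also a known Nrf2 target, fell at 48 hours (-1.30 ± 0.30, limma adjusted p = 0.000914). Pgd was lower at 6 hours (-0.79 ± 0.28, limma adjusted p = 0.0351) and higher at 1 week (0.74 ± 0.28, 0.034), and Pgls was higher at 24 hours (0.36 ± 0.11, 0.00899).

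Of 15 other known Nrf2 targets measured (18 listed), 6 were lower and 1 higher at 12 hours (29.9% of all genes called), and 7 were higher and 0 lower at 4 days (32.8%). Pir (1.31 ± 0.28, limma adjusted p = 0.000292) and Cbr1, a carbonyl reductase (1.16 ± 0.29, 0.00152), were higher at 1 week, and both were also called at 48 hours, 3 days and 4 days, the times at which Nqo1 was. Aox1, aldehyde oxidase, fell at 12 hours (-1.74 ± 0.32, limma adjusted p = 3.18e-05), and Ugdh, which makes the sugar for glucuronidation, fell there by 0.84 (SE 0.23, 0.0046).

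Other regulators of some of these genes were followed through their own targets. Of 14 targets and receptors of AhR, CAR and PXR, 3 were higher and 1 lower at 6 hours, not far from the 22% of all genes called there, with Tiparp, an AhR target, at 3.60 ± 0.44 (limma adjusted p = 2.91e-08) and Cyp2b10, a CAR target, at 4.30 ± 0.75 (2.27e-05). Nr1i3, which encodes CAR, was lower at 6 hours (-1.22 ± 0.27, limma adjusted p = 0.000541) and higher at 24 hours (1.07 ± 0.22, 0.000148), and Ces2a, a carboxylesterase, was lower at 48 hours (-2.05 ± 0.28, 6.32e-07). Of 12 genes listed for ATF4, which also drives Slc7a11, 4 were higher and 1 lower at 6 hours (22% of all genes called) and 5 higher and 1 lower at 24 hours (31.7%). Cebpb was higher at 6 hours (1.28 ± 0.22, limma adjusted p = 1.13e-05), Slc7a5 at 24 hours (0.36 ± 0.12, 0.0136) and Trib3 at 1 week (0.99 ± 0.34, 0.0198), and Shmt2 was lower at 12 hours (-2.19 ± 0.38, 1.56e-05).

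**Figure D4:**
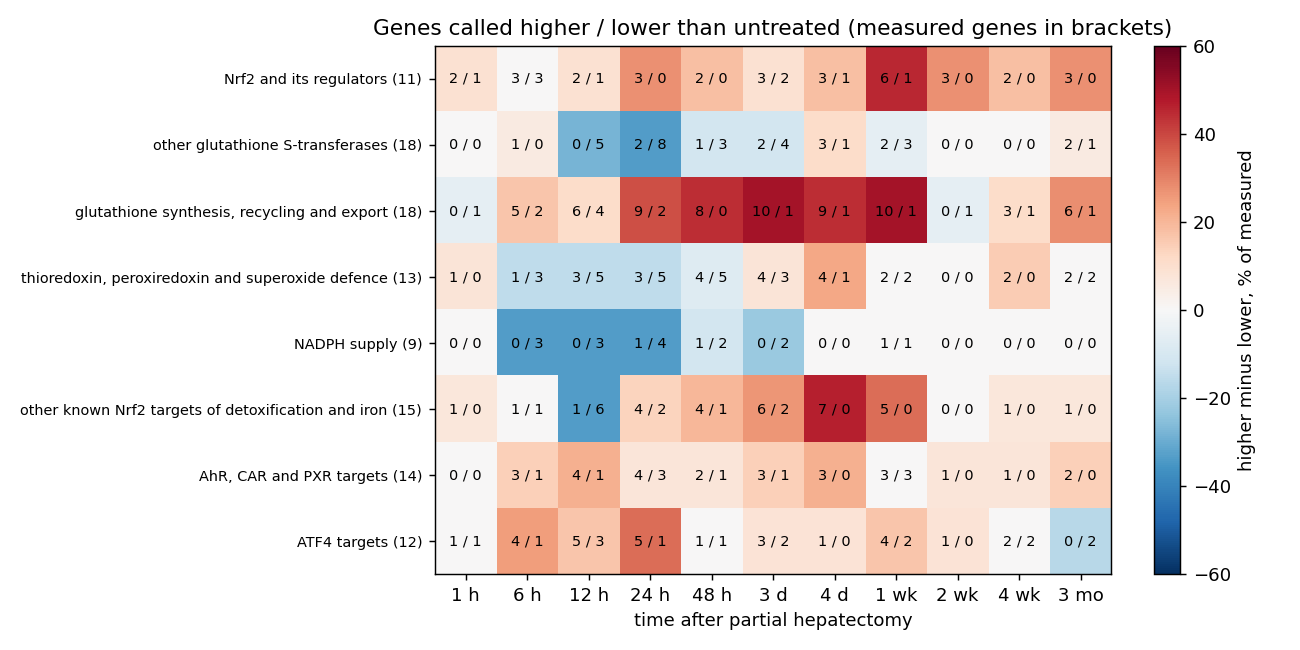
Number of genes called higher / lower than untreated liver (adjusted p under 0.05) in each of 8 gene lists (rows, measured genes in brackets) at each time (columns), with colour for higher minus lower as a percentage of the measured genes. Glutathione synthesis, recycling and export leans to higher from 24 hours to 1 week, and the other glutathione S-transferases lean to lower at 12 and 24 hours.

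The hybridization controls differ between the operated arrays and the controls, so each comparison was also fitted with their mean as a covariate. Nqo1 at 48 hours kept a change of 1.07 ± 0.31 (limma adjusted p = 0.0183), and Srxn1 kept 1.07 at 6 hours (0.0343), 1.02 at 24 hours (0.0176) and 1.16 at 48 hours (0.0191), while at 12 hours it was 0.91 and no longer called (0.0601). Txnrd1 stayed called at 6 hours (0.72, limma adjusted p = 0.0106) and 48 hours (0.60, 0.035) and not at 24 hours (0.49, 0.0519). Gsta2 at 24 hours was -4.55 and Gclc at 12 hours was -2.09 (limma adjusted p = 0.000303). Hmox1 at 6 hours was 1.96 ± 0.68 (limma adjusted p = 0.0358). Among the operated groups the 24-hour one alone reaches the range of the controls in this measure. At 3 days, 4 days and 1 week Nqo1 was 1.07 ± 0.44 (limma adjusted p = 0.221), 0.64 ± 0.41 (0.505) and 0.92 ± 0.42 (0.264). The calls of Srxn1, Txnrd1 and Hmox1 ended as well at the times among these at which they had been called. Srxn1 gave 0.77, 0.95 and 1.30 at these times, and Txnrd1 0.18, 0.27 and 0.33. Hmox1 gave larger changes than without the covariate, 2.18 at 4 days and 2.45 at 1 week. Standard errors grew, at 1 week from 0.30 to 0.45 for Srxn1 and from 0.56 to 0.84 for Hmox1. Some members not called in the fit of group means alone over all 52 arrays were called lower in this fit. At 12 hours these were Nqo1 (-0.89, limma adjusted p = 0.0419), Gsta2 (-1.83, 0.00718), Gsta4 (-1.88, 0.0368) and Ephx1, and at 3 days Gsta2 (-2.76, 0.0403). The step of Nqo1 from 1 week to 3 months, between groups whose means in this measure were 9.85 and 9.85, stayed at -1.40 ± 0.31 (limma adjusted p = 0.0155).

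**Figure D5:**
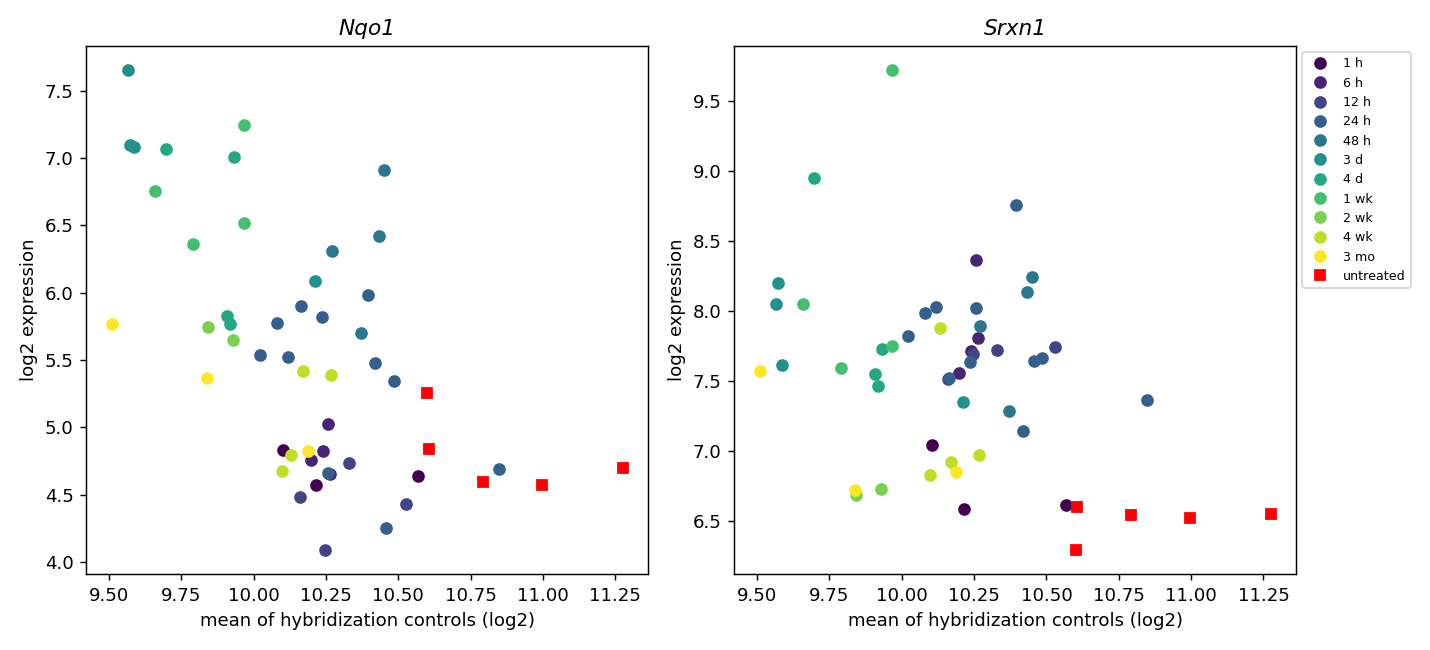
Log2 expression of Nqo1 (left) and Srxn1 (right) on each array against the mean of the 18 hybridization control probe sets of that array, with the times after partial hepatectomy as circles coloured from dark (1 hour) to light (3 months) and the 5 untreated controls as red squares. The controls lie between 10.60 and 11.27 on the x axis, to the right of all operated arrays except 1 at 24 hours.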

How the data were processed

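Values were taken as deposited: log2 probe set summaries that the authors made by RMA in oligo 1.52.0, as the submitters' processing notes have it. Whether RMA was run on all arrays at once is a point not given in the sources used here. The number of arrays limits the precision. Sample titles gave the groups and the replicate numbers. Of 45101 probe sets, the platform annotation ties 34958 to 1 gene and 932 to several, and 9211 are absent from it. They gave 18194 genes, 18033 of them in the GRCm38.p6 gene table, each read by its brightest single-gene probe set. The 10 genes have 18 such probe sets.

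One limma 3.58.1 fit in R 4.3.3 (lmFit, eBayes) of 12 group means gave 11 comparisons with the controls, 4 steps between times and an F test. Tests were two-sided with Benjamini-Hochberg adjustment over genes, and calls were made at an adjusted p under 0.05. Errors of changes are standard errors. The fit was tested on simulated data.

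The genes and lists were chosen with earlier results of these data known. The genes named were the 10 members, Nfe2l2, Keap1, Bach1 and the small Maf genes, up to 4 genes per list with the smallest F-test p, and the 3 nearest courses per member. Alternatives were a replicate block, the mean over all probe sets of a gene, each other probe set, genes below the 40th percentile left out, median centring, a further quantile normalization, the hybridization controls or the Gapdh difference as a covariate, the 2 groups alone, and fits without 7 doubted arrays (replicate 1 of the controls, 4 of the 1-week group, 1 of the 4-week group, and 1, 9, 10 and 11 of the 24-hour group), without the 3 arrays with Xist, and without each array.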

Additional observations from a re-analysis of the deposited data

Results flagged for a closer look

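Of 80 combinations of gene and group, in groups of 4 or 5 arrays, 12 held 1 array far from the others, and chance gives about 1 in 20. At 1 week replicate 4 stood apart in Hmox1 (10.25), Gclm (11.26) and Gsta4 (5.40). At 4 weeks replicate 1 stood apart in Gclc (8.51), Srxn1 (7.88) and Slc7a11 (2.97, a background level). At 3 days replicate 2 stood apart in Gsta4 (5.86). At 12 hours the arrays are so close together that small gaps were enough, for Gclm in replicate 4 (9.01), Gsta2 in replicate 1 (9.56) and Gsta4 in replicate 3 (8.01). Among the controls replicate 5 stood apart in Srxn1 (6.29) and replicate 1 in Gsta2 (9.89).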

How the results depend on the processing

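Of the calls of single members, 246 of 270 held when 1 array was left out, 213 of 247 held under the other settings, and 19 of 36 held in other probe sets, of which 5 turned direction. Those were Gclm at 6 hours (0.15), Srxn1 at 3 days (-0.057) and 4 days (-0.15) in 1 of its other sets, and Txnrd1 at 4 days in both of its near-background sets (-0.10 and -0.073). Srxn1 at 3 months, not called in the set used, was -0.59 in that same set (limma adjusted p = 0.00478). The cause was not tested. The number of members called changed by over 1.5 times as follows. With the hybridization covariate it was 6 at 12 hours, all lower (3 in the fit reported, 1 higher and 2 lower), 1 at 3 days (3), 0 at 4 days (4), 0 at 1 week (4) and 0 at 3 months (1). Over all genes that fit called 16 at 1 hour (917 in the fit reported), 2424 at 24 hours (5776), 2150 at 48 hours (5609), 5 at 2 weeks (620), 223 at 4 weeks (2677), 188 at 3 days (7168), 123 at 4 days (5974), 141 at 1 week (6683) and, at 3 months, 0 (5476). Without the 7 doubted arrays the number of members called was 6 at 12 hours, 5 at 3 days, 2 at 3 months and 3 from 48 hours to 1 week (0). With the 2 groups alone it was 1 at 1 hour (0), 8 at 12 hours, 7 at 48 hours (4), 6 at 3 days, 2 at 1 week, 4 at 3 months, 1 at each of 2 and 4 weeks (0), 1 from 24 to 48 hours (2) and 0 from 1 week to 3 months (1). Averaging the probe sets of a gene gave 0 at 3 months and 2 from 1 week to 3 months, the quantile normalization 0 at 3 months, the Gapdh covariate 2 from 1 week to 3 months, and the fit without the Xist arrays 1 from 24 to 48 hours. Leaving out 1 array gave 2 to 4 at 4 days, 2 to 5 at 1 week, 0 to 1 at 3 months, 1 to 2 from 24 to 48 hours, 0 to 1 from 48 hours to 1 week and 0 to 3 from 1 week to 3 months. Median centring moved the median change of all genes by up to 0.13, at 1 week, where 75.63% of calls were then higher (59.33% in the fit reported), and turned no called member. A further quantile normalization put that share at 53.34% at 2 weeks (82.26%). Other counts over all genes that moved by over 1.5 times were, with the Gapdh covariate, 237 at 1 hour, 330 at 2 weeks and 1076 at 4 weeks, without the doubted arrays 1065 at 4 weeks and 363 from 1 week to 3 months (147), without the Xist arrays 600 from 24 to 48 hours (997), and with the 2 groups alone 1533 at 4 weeks, 449 from 24 to 48 hours, 9 from 48 hours to 1 week (558) and 6 from 1 week to 3 months. Arrays with the same replicate number did not deviate together (median r = -0.00 over 224 pairs), so the numbers do not pair them. The replicate block gave 1 member from 24 to 48 hours, ended the calls of Gsta4 at 24 hours (-0.98, limma adjusted p = 0.175) and Txnrd1 at 3 days (0.43, 0.0622), called 6920 of all genes from 6 to 24 hours (4035), and moved no other count of members by over 1.5 times.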
